A study of Homo sapiens with 12 samples.

Results

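Aminoacyl-tRNA synthetases are the enzymes that join each amino acid to its tRNA. The members described here were chosen by a list of gene symbols. The list itself used no measured value, but it was made with earlier results of these data known. It holds 20 genes for cytosolic enzymes, 16 genes for mitochondrial enzymes, whose symbols end in 2, and 3 scaffold genes of the multi-synthetase complex (AIMP1, AIMP2 and EEF1E1). That is 39 of the 43481 genes in the tables. All 39 passed the filter on low counts. The cells were RPE-1, an immortalised human retinal pigment epithelial line, and poly-A RNA was sequenced from 12 libraries in 4 groups of 3. Every group had first been kept without fetal calf serum (FCS) and glucose for 24 h. The starved group had no stimulation. The other groups were refed for 4 h with RPMI medium holding 10% FCS and 5 g/l glucose, and this medium carried DMSO (solvent), 100 µM DMA (dimethyl amiloride, an inhibitor of Na+/H+ exchange) or 10 µM C646 (an inhibitor of the histone acetyltransferases p300 and CBP). The series asks how pH bears on progress through the cell cycle. The labels number the libraries of a group 1 to 3 without saying that they came from separate cultures, so the p-values measure the spread between these libraries only.

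Cells use separate sets of these enzymes for the cytosol and for the mitochondrion. Nearly all are encoded in the nucleus by separate genes, with exceptions such as KARS and GARS, which make both forms. A group of 8 cytosolic enzymes form a multi-synthetase complex with the 3 scaffold proteins, and the rest act outside it. When uncharged tRNA builds up or the endoplasmic reticulum is stressed, phosphorylation of the initiation factor eIF2 raises the transcription factor ATF4, and several cytosolic synthetase genes are among its known targets.

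The libraries held between 14910516 and 28968510 expected counts, and 3 counts, the limit that a count of 0 allows, came to between 0.104 and 0.201 CPM (counts scaled to the size of the library). The cytosolic genes together took 0.364% to 0.640% of a library's counts, the mitochondrial genes 0.0475% to 0.0596%, and the scaffold genes 0.0148% to 0.0207%. Transcripts of mature pigment epithelium were scarce: TTR was at 0 in all 12 libraries, and RPE65 and RLBP1 stayed under 0.3 CPM. MITF reached 17.6 to 55.8 CPM, and the epithelial keratin KRT18 349 to 680 CPM. The 10 pigment epithelium markers summed to between 61.1 and 78.9 CPM in starved libraries and between 26.9 and 50.1 CPM in solvent libraries. Their part in the synthetase results was not tested. The 7 markers of other cell types summed to between 0.613 and 2.06 CPM in all libraries. On the second principal component library 3 of every group lay apart, at -36.7 to -27.6 against -2.66 to 27.1 for the other 8 libraries. On the third, solvent library 1 scored 58.0, and solvent libraries 2 and 3 scored 11.7 and 9.82.

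Refeeding in solvent went with lower levels of most cytosolic synthetase genes relative to the median gene, with little movement of the mitochondrial set. Of the 20 cytosolic genes, 11 were lower and 3 higher in solvent than in starved libraries, and 6 did not pass the test (edgeR quasi-likelihood F-test with trimmed mean of M-values, or TMM, scaling; Benjamini-Hochberg adjustment over 15263 genes, threshold 0.05). Of all genes tested, 24.3% passed in either direction, 11.7% lower and 12.6% higher. The median log2 fold change of the cytosolic genes was -0.41, beside 0.00 over all genes. These directions rest on TMM scaling. The 92 spike-in control sequences took 1.28%, 0.959% and 0.872% of counts in starved libraries and 1.06%, 0.527% and 0.663% in solvent libraries. These ranges overlapped, and library 1 held the highest share in every group. When the libraries were scaled to the counts of these sequences instead of by TMM, the median of all genes moved to 0.60 and that of the cytosolic genes to 0.22. No cytosolic gene was then lower past the threshold, against 1.24% of all genes, and 3 were higher (RARS, HARS and FARSB), against 21.1%, with 22.4% called in either direction. The 17 calls among all members became 9, all higher, and the standard errors grew from a median of 0.13 to 0.33. So "rose" and "fell" in what follows mean relative to the median gene. Without solvent library 1, 10 cytosolic genes were lower and 3 higher under TMM scaling.

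**Figure D1:**
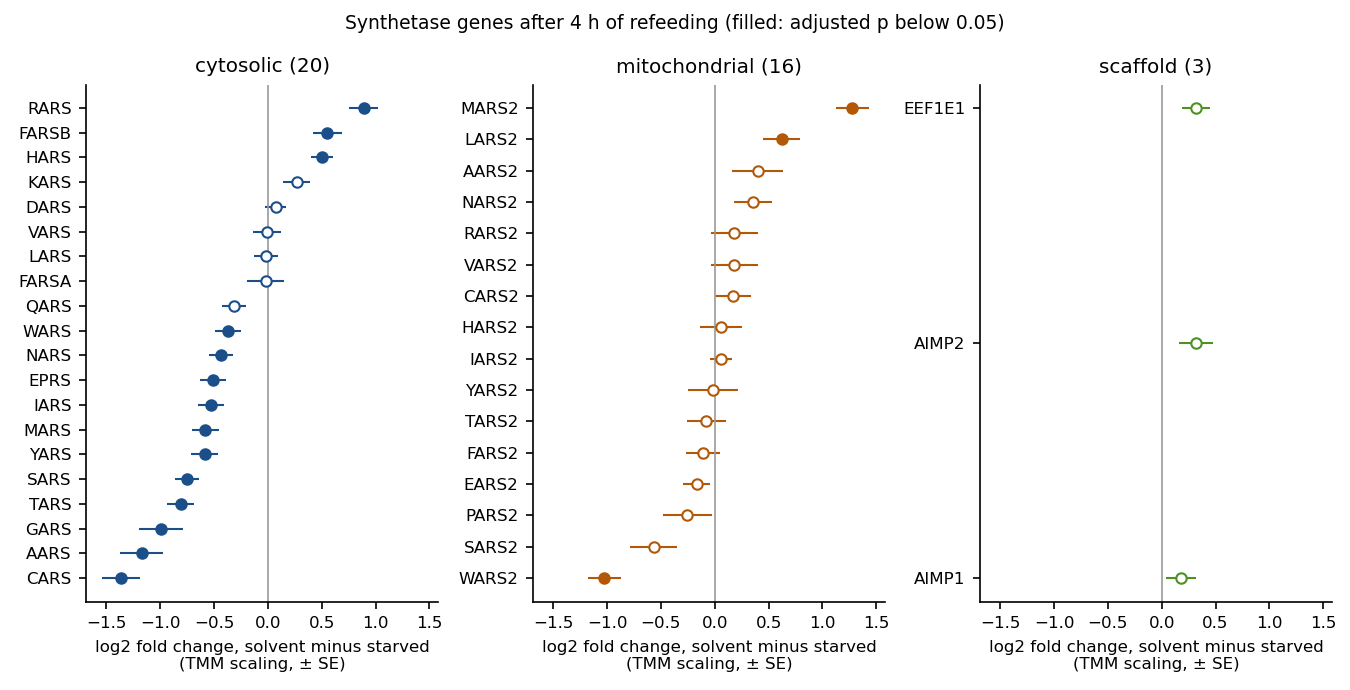
Log2 fold change of solvent minus starved libraries (x axis, TMM scaling, bars ± SE) for each cytosolic, mitochondrial and scaffold gene (rows), with filled points for adjusted p below 0.05. The 11 filled cytosolic points on the left run from CARS at -1.36 to WARS at -0.37, RARS, FARSB and HARS lie filled on the right, and with spike-in scaling every filled point left of 0 loses its call.

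CARS, the cysteinyl-tRNA synthetase, fell the furthest of the cytosolic genes. Its TMM-scaled levels were 201, 182 and 165 CPM in starved libraries, 58.3, 72.6 and 81.8 in solvent, 65.8, 88.1 and 97.8 with DMA, and 68.4, 75.6 and 96.0 with C646. All 9 refed libraries lay below all 3 starved ones. The log2 fold change of solvent minus starved was -1.36 ± 0.17 (SE; adjusted p = 0.000171, edgeR).

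AARS, the alanyl-tRNA synthetase, was at 387, 426 and 394 CPM in starved libraries, 151, 188 and 197 in solvent, 183, 195 and 218 with DMA, and 114, 198 and 225 with C646. The starved values stayed within a narrow band, the C646 values were widely spread, and no refed library reached the starved range. AARS fell by 1.17 ± 0.20 on the log2 scale (adjusted p = 0.0012, edgeR). GARS, the glycyl-tRNA synthetase, which supplies both compartments from a single gene, was at 812, 582 and 678 CPM in starved libraries, 326, 303 and 411 in solvent, 315, 372 and 460.2 with DMA, and 296, 313 and 481 with C646. It fell by 0.99 ± 0.20 on the log2 scale (adjusted p = 0.00392, edgeR), again with no overlap between starved and refed libraries.

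The other cytosolic genes that fell were TARS (threonine, -0.81), SARS (serine, -0.75), YARS (tyrosine, -0.59), MARS (methionine, -0.58), IARS (isoleucine, -0.52), EPRS (glutamate and proline in a single bifunctional protein, -0.51), NARS (asparagine, -0.44) and WARS (tryptophan, -0.37). The fall of WARS was the least secure. Its adjusted p was 0.0441 (edgeR), and it lost its call in 5 of the 6 fits that left out 1 starved or solvent library. NARS lost its call without starved library 1 (adjusted p = 0.0559, edgeR).

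RARS, the arginyl-tRNA synthetase, moved the other way. It was at 79.5, 76.9 and 102 CPM in starved libraries, 172, 143 and 164 in solvent, 153, 145 and 155 with DMA, and 109, 119 and 138 with C646. Its log2 fold change was 0.89 ± 0.13 (adjusted p = 0.000425, edgeR), and every refed library was above every starved one. RARS is a member of the multi-synthetase complex.

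HARS, the histidyl-tRNA synthetase, also rose. It was at 84.4, 88.0 and 87.8 CPM in starved libraries, 131, 119 and 119 in solvent, 139.8, 123 and 114 with DMA, and 122, 109.8 and 112 with C646. The log2 fold change was 0.51 ± 0.10 (adjusted p = 0.00321, edgeR), with no overlap between starved and refed libraries. HARS and HARS2 lie head to head on chromosome 5 in GENCODE 29 (GRCh38), at chr5:140673904-140691862 on the minus strand and chr5:140691426-140699318 on the plus strand. Their 5′ ends are 436 bases apart, and the annotated genes overlap over that stretch. Exons of HARS overlap 11.7% of the HARS2 exon bases on the opposite strand. The strand setting is not named, so reads there could not be assigned with certainty. HARS2 had a log2 fold change of 0.06 ± 0.20 (adjusted p = 0.861, edgeR) in the same comparison. Whether the difference between these neighbours exceeds their errors was looked at only through their ratio, given below.

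FARSB and FARSA encode the β and α subunits of a single enzyme, the cytosolic phenylalanyl-tRNA synthetase. FARSB was at 62.0, 55.6 and 73.4 CPM in starved libraries and 105, 89.0 and 85.5 in solvent libraries, a log2 fold change of 0.55 ± 0.14 (adjusted p = 0.0106, edgeR). FARSA was at 68.8, 77.5 and 62.2 CPM in starved and 57.7, 69.2 and 78.8 CPM in solvent libraries, which overlapped (-0.02 ± 0.17, adjusted p = 0.946, edgeR). The rise of FARSB did not pass the threshold without starved library 2 (adjusted p = 0.0574, edgeR).

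The 6 cytosolic genes that did not pass lay between log2 -0.32 and 0.27. They were QARS, KARS, DARS, LARS, VARS and FARSA. QARS and KARS did pass in a fit with the replicate number as a block, given below. QARS, the glutaminyl-tRNA synthetase, was at 239, 242 and 286 CPM in starved and 194, 206 and 217 CPM in solvent libraries (-0.32 ± 0.11, adjusted p = 0.0524, edgeR). Those ranges did not overlap. KARS, the lysyl-tRNA synthetase of both compartments, was at 168, 184 and 229 CPM in starved and 235, 223 and 240.4 CPM in solvent libraries (0.27 ± 0.12, adjusted p = 0.141, edgeR). DARS (aspartate), LARS (leucine) and VARS (valine) had log2 fold changes of 0.07, -0.02 and -0.01.

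**Figure D2:**
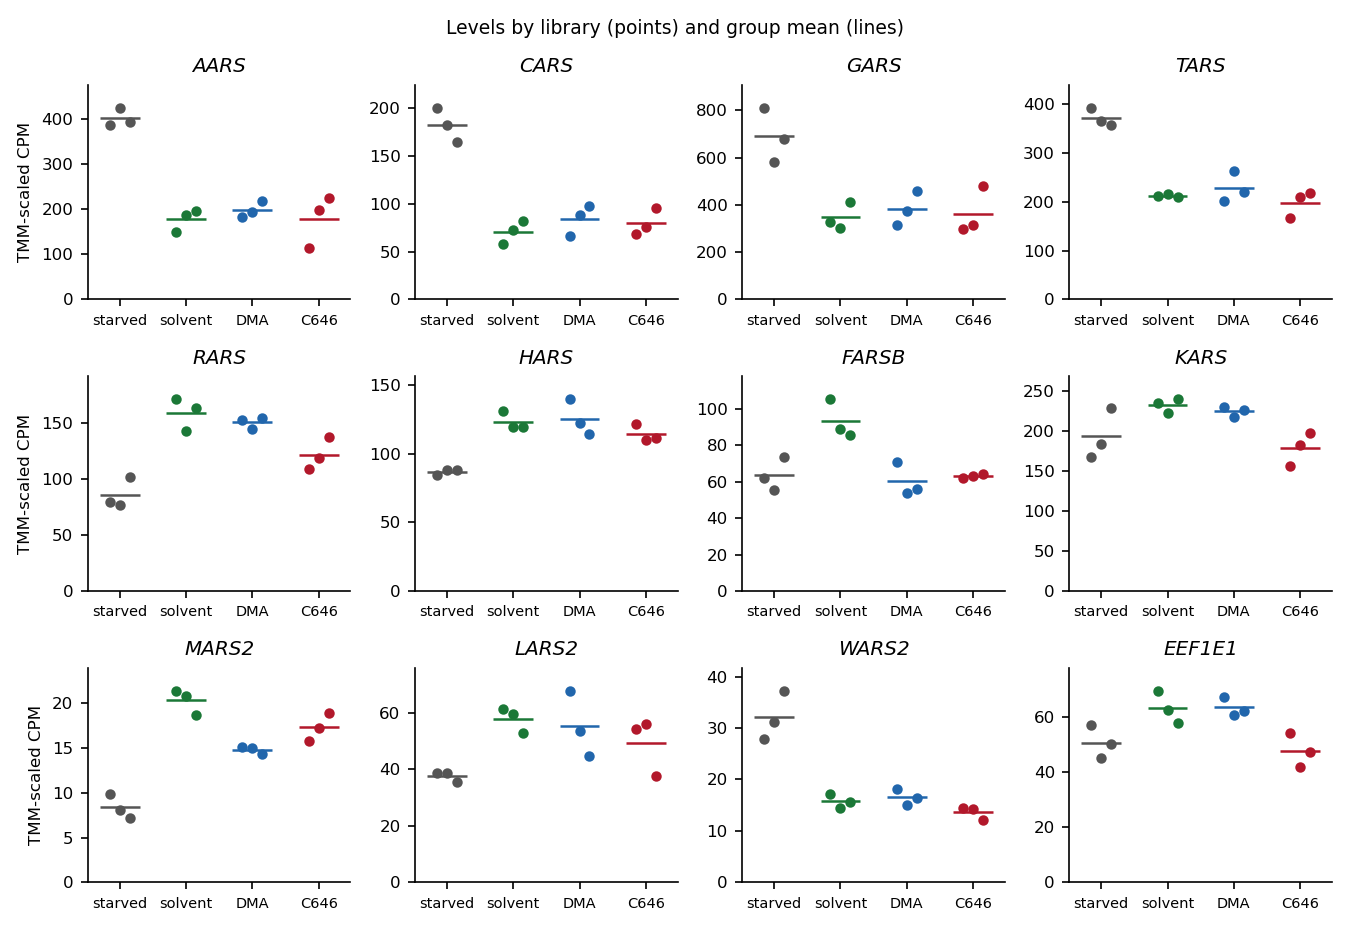
TMM-scaled CPM (y axis, from 0) of 12 members in each library (points) of the starved, solvent, DMA and C646 groups (x axis), with the group means as lines. AARS, CARS, GARS, TARS and WARS2 lie lower in all refed libraries, RARS, HARS and MARS2 lie higher in all of them, and FARSB has a mean of 93.3 CPM in the solvent group against 60.2 to 63.7 CPM elsewhere; with spike-in scaling, whose values are not drawn, the falls lose their call.

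By structural family, the falls were spread over both evolutionary classes of synthetase. Of the 9 class I cytosolic genes, 5 were lower and 1 higher, and of the 10 class II genes 5 were lower and 2 higher, with EPRS, which carries a domain of each class, left out of both. Of the 10 genes for essential amino acids, 4 were lower and 2 higher (median log2 fold change -0.02), and of the 10 for the other amino acids 7 were lower and 1 higher (median -0.55). Of the 8 enzymes of the multi-synthetase complex, EPRS, IARS and MARS fell, RARS rose, and DARS, KARS, LARS and QARS did not pass (median -0.17). Of the 12 cytosolic enzymes outside the complex, 8 were lower and 2 higher (median -0.51). Over all genes 11.7% were lower and 12.6% higher, and the differences between these subgroups were not tested.

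The 3 scaffold genes did not pass the test between solvent and starved libraries under TMM scaling. EEF1E1 did pass in a fit with the replicate number as a block, given below. AIMP1, which organises the complex, was at 73.3, 68.5 and 99.5 CPM in starved and 95.5, 86.6 and 91.1 CPM in solvent libraries, with overlap (0.18 ± 0.14, adjusted p = 0.386, edgeR). AIMP2, its central scaffold, was at 36.6, 34.6 and 37.2 CPM in starved and 45.7, 43.0 and 46.3 CPM in solvent libraries, without overlap (0.32 ± 0.16, adjusted p = 0.162, edgeR). EEF1E1, also known as AIMP3, was at 56.8, 44.9 and 50.05 CPM in starved and 69.4, 62.4 and 57.6 CPM in solvent libraries, also without overlap (0.32 ± 0.13, adjusted p = 0.0903, edgeR). With spike-in scaling AIMP2 and EEF1E1 passed, at 0.90 and 0.91. So at the level of RNA the scaffold genes did not share the fall of EPRS, IARS and MARS. Counts of AIMP2 and EEF1E1 are uncertain, since 28.9% of the AIMP2 exon bases overlap exons of EIF2AK1 on the opposite strand and 21.5% of the EEF1E1 transcript sequence is shared with other genes, chiefly the read-through gene EEF1E1-BLOC1S5.

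The promoters of the cytosolic genes that fell were read because these genes moved together. The window runs from 250 bases before to 50 bases after the transcription start (RefSeq, GRCh38.p14), and 33 of the 39 members had at least 1 window. The search looked on both strands for TGATGNAA, the C/EBP-ATF element that ATF4 dimers are known to bind. It was found in 7 of the 10 fallen cytosolic genes with a window: AARS, CARS, GARS, IARS, MARS, NARS and TARS. EPRS, SARS and WARS had windows without it, as did the 3 cytosolic genes that rose and the 3 with a window that did not pass. In the other sets it was in 1 of 14 mitochondrial genes (YARS2) and 0 of 3 scaffold genes. Of all 35116 windows, 3.62% held it. That share is per window, while the counts of members are per gene, and CARS, GARS, SARS, TARS and WARS had 2 windows each. A match is only a description of letters and does not show that a factor bound there. For 6 of the 7 genes, runs of 30 bases are printed because they carry this element, each on the strand of its gene and with the match in capitals. Except in NARS the capitals are the element as read from the opposite strand.
CARS: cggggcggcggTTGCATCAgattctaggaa
GARS: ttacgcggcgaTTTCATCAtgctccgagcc
IARS: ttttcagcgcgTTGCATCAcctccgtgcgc
MARS: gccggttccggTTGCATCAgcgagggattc
NARS: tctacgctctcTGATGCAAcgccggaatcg
TARS: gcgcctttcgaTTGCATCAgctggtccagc

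These runs lie at chr11:3057407-3057436 on the minus strand (CARS), chr7:30594834-30594863 plus (GARS), chr9:92293692-92293721 minus (IARS), chr12:57488053-57488082 plus (MARS), chr18:57621804-57621833 minus (NARS) and chr5:33440956-33440985 plus (TARS). In these 6 the match began within 33 bases of an annotated start. The 8 letters TTGCATCA were the same in CARS, IARS, MARS and TARS.

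The mitochondrial genes showed no common direction. Of the 16, 2 were higher (MARS2 and LARS2), 1 was lower (WARS2) and 13 did not pass in solvent against starved libraries, beside 24.3% of all genes called. Their median log2 fold change was 0.06 with TMM scaling and 0.65 with spike-in scaling, beside all-gene medians of 0.00 and 0.60, and with spike-in scaling AARS2, LARS2, MARS2 and NARS2 were higher. The 13 that did not pass lay between log2 -0.57 (SARS2) and 0.40 (AARS2). SARS2 did pass in a fit with the replicate number as a block, given below.

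MARS2, the mitochondrial methionyl-tRNA synthetase, had the largest rise among the members. It was at 9.82, 8.12 and 7.13 CPM in starved libraries, 21.4, 20.8 and 18.7 in solvent, 15.07, 15.02 and 14.4 with DMA, and 15.8, 17.2 and 18.9 with C646. All refed libraries were above all starved ones. The log2 fold change was 1.28 ± 0.16 (adjusted p = 0.000129, edgeR). Its gene has a single annotated transcript in GENCODE 29, at chr2:197705369-197708387 on the plus strand. Among the 33 members with a promoter window, only MARS2 held both the E-box CACGTG and the NRF1 element searched. MYC and related factors are known to bind the E-box, and the NRF1 element is the longer of the capital blocks in the run printed here. Either sequence reads the same on both strands, and 7.26% and 1.24% of all windows held them. CACGTG was also in the windows of IARS, CARS2, EARS2 and AIMP2. The 60 bases just before the MARS2 start, chr2:197705309-197705368 on the plus strand, are shown with both elements in capitals.
MARS2: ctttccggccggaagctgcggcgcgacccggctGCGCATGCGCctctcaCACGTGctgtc

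LARS2, the mitochondrial leucyl-tRNA synthetase, was at 38.7, 38.6 and 35.5 CPM in starved libraries, 61.2, 59.5 and 53.0 in solvent, 67.9, 53.6 and 44.7 with DMA, and 54.2, 55.8 and 37.6 with C646. Solvent and DMA libraries were above the starved range, and C646 library 3 lay inside it. The log2 fold change of solvent minus starved was 0.62 ± 0.17 (adjusted p = 0.0175, edgeR), and the call was lost without starved library 2, solvent library 1 or solvent library 2 (adjusted p of at most 0.0569). WARS2, for mitochondrial tryptophan, was the member of its set that fell. It was at 27.9, 31.1 and 37.3 CPM in starved libraries, 17.1, 14.5 and 15.6 in solvent, 18.1, 14.98 and 16.4 with DMA, and 14.5, 14.4 and 12.1 with C646. The refed libraries were all below the starved ones (-1.02 ± 0.15, adjusted p = 0.000454, edgeR); with spike-in scaling the value was -0.48 and did not pass.

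All 9 refed libraries lay on the same side of all 3 starved libraries for 12 of the 20 cytosolic genes, below for AARS, CARS, EPRS, GARS, IARS, NARS, QARS, SARS, TARS and YARS and above for HARS and RARS. The same held for 4 of the 16 mitochondrial genes, below for EARS2, SARS2 and WARS2 and above for MARS2, and for 0 of the 3 scaffold genes. Over all genes tested it held for 20.9%, with 10.7% below and 10.2% above. These counts use TMM-scaled CPM. SARS2 is uncertain, since 42.0% of its transcript sequence is shared with the overlapping locus AC011455.2.

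**Figure D3:**
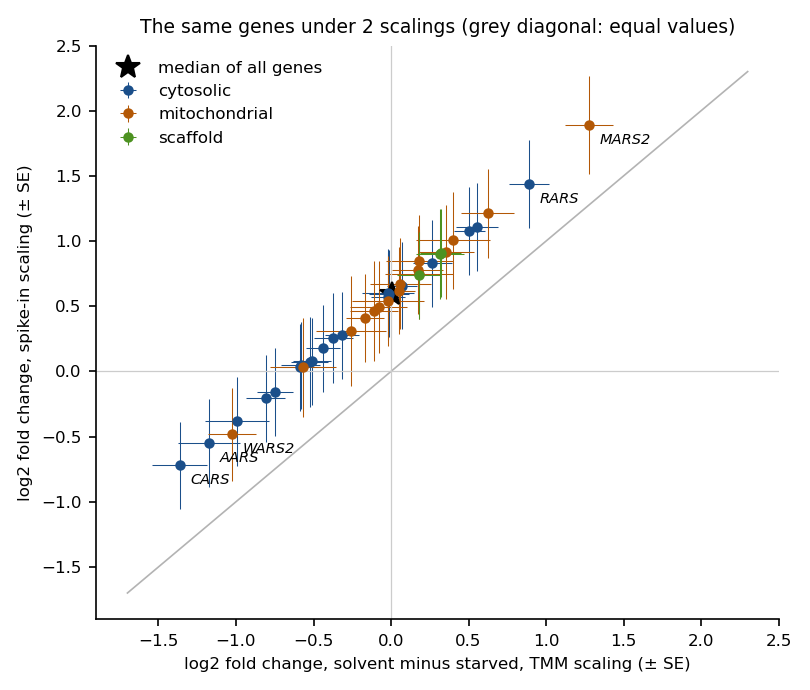
Log2 fold change of solvent minus starved for the 39 members under TMM scaling (x axis) and spike-in scaling (y axis), each with ± SE, coloured by role; the star is the median of all 15263 genes. The points run parallel to the grey line of equal values and above it, as does the star at 0.00 and 0.60, so the order of the members is nearly the same on both axes while 0 moves.

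TPM gives levels per length as shares of a library, so a sum set against that of another library depends on scaling as a fold change does, while a ratio or a spread within a library does not. The 20 cytosolic genes summed to 4311, 3756 and 3357 TPM in starved libraries, 2841, 2729 and 2864 in solvent, 2761, 3064 and 2944 with DMA, and 2418, 2733 and 3036 with C646. The starved sums, 3808 ± 479 (SD, n = 3), lay above the solvent sums, 2811 ± 72.1, by ranges that did not overlap, a log2 difference of -0.44 between the means. That is smaller than the shift of 0.60 that spike-in scaling gave the median gene, so the lower sum is a lower share of the library and its direction rests on the scaling. The 16 mitochondrial genes summed to 339 ± 7.76 TPM in starved, 367 ± 35.5 in solvent, 314 ± 16.8 in DMA and 317 ± 23.1 in C646 libraries (SD, n = 3 each). Starved and solvent ranges overlapped, while DMA libraries lay below both in TPM. In TMM-scaled CPM the DMA sums (551, 515 and 501) overlapped the starved sums (530, 536 and 583) and the solvent sums (603, 593 and 538). The ratio of the cytosolic to the mitochondrial sum, which does not depend on scaling, was 12.7, 11.4 and 9.70 in starved libraries and 7.15, 7.28 and 8.74 in solvent libraries. It was 8.52, 9.49 and 10.0 with DMA and 7.26, 8.35 and 10.4 with C646, so both inhibitor groups overlapped the starved range.

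Refed libraries held the cytosolic genes at levels closer to each other. In starved libraries the cytosolic order by TPM opened with WARS (529 ± 121), GARS (488 ± 74.3) and SARS (365 ± 32.5) and closed with RARS (58.9 ± 5.39) and FARSB (24.8 ± 2.07), all as mean ± SD with n = 3. In solvent libraries the same genes led, at 399 ± 25.1, 262 ± 34.0 and 222 ± 13.5 TPM, but their distance from RARS (106 ± 13.2) and FARSB (37.3 ± 5.52) was smaller. AARS went from the ninth to the fifteenth place of the 20 and CARS from the 13th to the 19th. The spread of the 20 genes, as the SD of their log2 TPM within a library, was 1.19, 1.13 and 1.09 in starved and 0.868, 0.846 and 0.900 in solvent libraries, with 0.932, 1.05 and 1.01 for DMA and 0.942, 0.912 and 1.02 for C646. Every refed library was below every starved one. For the 16 mitochondrial genes it was 1.13, 1.17 and 1.29 in starved and 1.18, 1.14 and 1.08 in solvent libraries, which overlapped. There IARS2 led at 56.5 ± 1.79 TPM in starved libraries, followed by CARS2 at 44.6 ± 1.91, and MARS2 was last at 3.62 ± 0.806; in solvent libraries PARS2 was last at 3.63 ± 0.235.

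**Figure D4:**
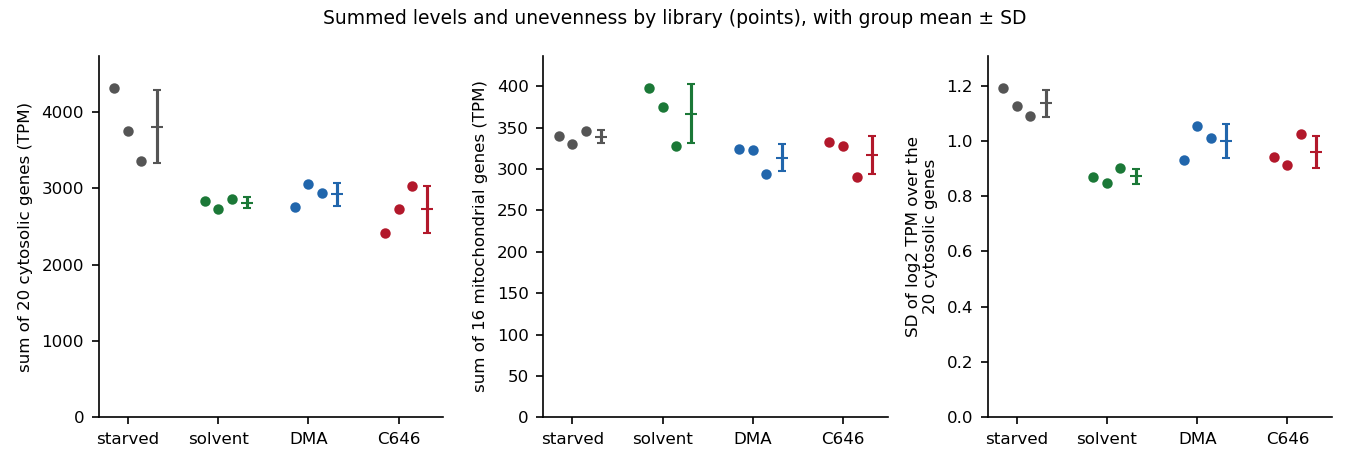
Sum of TPM over the 20 cytosolic genes (left), over the 16 mitochondrial genes (middle) and SD of log2 TPM over the 20 cytosolic genes (right), for each library (points) with the group mean ± SD beside them; all axes start at 0. The starved libraries are the highest in the left and right panels, at 3357 TPM or more and 1.09 or more. In the middle panel starved and solvent overlap and DMA, at 294 to 324 TPM, lies below both, while in TMM-scaled CPM, which is not drawn, DMA overlaps both. The left and middle panels show shares of a library, whose direction between groups rests on the scaling.

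Each cytosolic gene was also set against the mitochondrial gene for the same amino acid, as the log2 of their TPM ratio within each library, for 16 pairs. EPRS was paired with both EARS2 and PARS2, and FARSA with FARS2. Starved and solvent libraries did not overlap for 11 of the 16 ratios, 10 lower and 1 higher in solvent, and the median difference was -0.51. With TMM-scaled CPM in place of TPM, 10 ratios did not overlap, 8 lower and 2 higher, with a median difference of -0.45. Among single genes, CPM did not overlap between these groups for 40.0%. With 3 libraries against 3 an exact two-sided permutation test cannot go below 0.10, and the 11 ratios were at that value (adjusted over the 16 pairs, 0.145). The MARS to MARS2 ratio changed most. Its log2 was 5.55 ± 0.14 in starved and 3.70 ± 0.07 in solvent libraries (mean ± SD, n = 3), as MARS fell and MARS2 rose. The CARS to CARS2 ratio went from 1.28 ± 0.23 to -0.30 ± 0.45, so the cytosolic gene was the lower of the pair in the mean of the solvent libraries. The AARS to AARS2 ratio went from 5.23 ± 0.25 to 3.68 ± 0.34. The LARS to LARS2 ratio was lower by 0.74 although LARS itself had a log2 fold change of -0.02. RARS to RARS2 was the ratio that was higher without overlap in TPM, at 1.07 ± 0.13 in starved and 1.66 ± 0.22 in solvent libraries. HARS to HARS2 differed by 0.55, with overlapping libraries (exact permutation p = 0.20, adjusted 0.229).

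**Figure D5:**
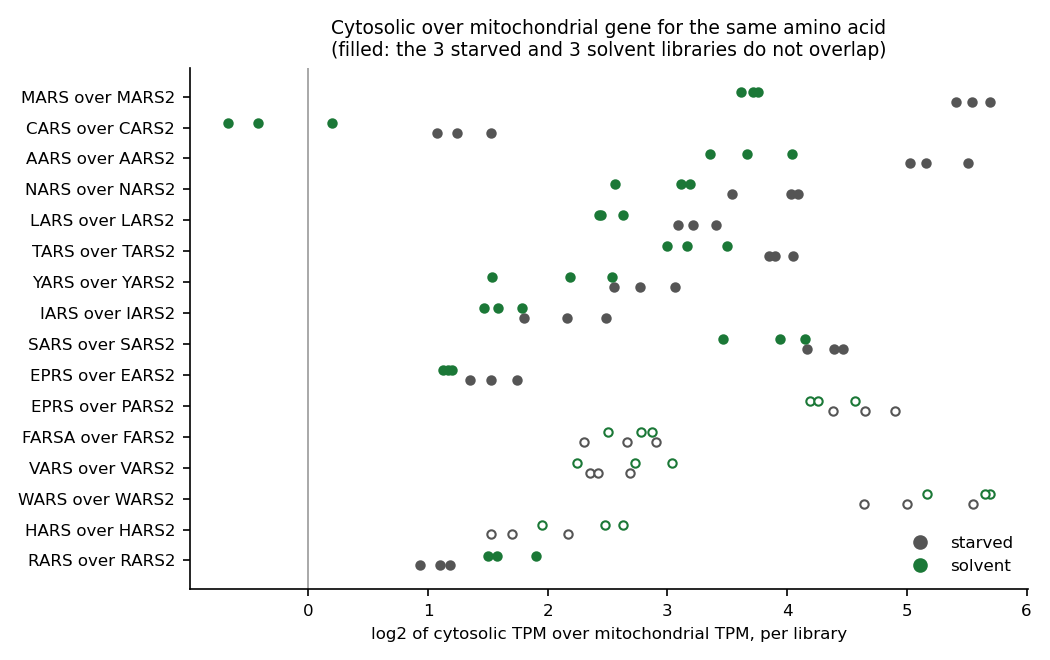
Log2 of cytosolic over mitochondrial TPM (x axis) in each starved and each solvent library (points) for 16 pairs of genes (rows, ordered by the difference), filled where the groups do not overlap. The solvent points lie left of the starved points in the upper 10 rows, by 1.85 for MARS over MARS2, and right of them for RARS over RARS2 in the bottom row; these ratios do not depend on library scaling.

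Reading by transcript, a single transcript held at least 90% of a member's counts in every library for 12 of the 39 genes. KARS-201 held between 84.5% and 91.9% of KARS counts, and KARS-202 between 0.304% and 2.64%, with starved and solvent libraries overlapping for both. KARS is known to use alternative splicing for its mitochondrial form. WARS-203 held between 61.1% and 77.2% of WARS counts, also with overlap. VARS2 was the gene whose leading transcript differed by at least 10 percentage points without overlap: VARS2-212 held 58.5% ± 4.17 of its counts in starved and 42.4% ± 5.43 in solvent libraries (SD, n = 3), while VARS2-201 went from 13.8% ± 6.16 to 35.7% ± 7.97. In shares of TPM the difference for VARS2-212 was -4.97 points in place of -16.2, and 22.0% of VARS2 exon bases overlap GTF2H4, so this split is uncertain.

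The inhibitors moved few members against solvent. With DMA, FARSB was the member called, against 1.75% of all genes in either direction, 0.734% higher and 1.02% lower. FARSB was at 70.8, 53.6 and 56.3 CPM with DMA against 105, 89.0 and 85.5 CPM with solvent, without overlap, and at 62.0, 63.2 and 64.1 CPM with C646. Its log2 fold change of DMA minus solvent was -0.63 ± 0.14 (adjusted p = 0.0374, edgeR). The starved libraries, at 55.6 to 73.4 CPM, lay in the same range as both inhibitor groups. The call was lost without solvent library 1 (adjusted p = 0.173), solvent library 2 (0.0759), DMA library 2 (0.160) or DMA library 3 (0.0991), and with spike-in scaling (-0.41, adjusted p = 0.859; 0.596% of all genes called, 0.557% higher and 0.0393% lower). Over all 15 alternatives the adjusted p ran from 0.00216 to 0.859. Solvent library 1 held the highest FARSB level, and its part in the result was not tested beyond that.

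Libraries with the same number deviated together, least clearly between solvent and starved, where the correlations were 0.0957, 0.330 and 0.182. Values with the replicate number as a block are therefore given where they change a call. For solvent minus starved the block also called QARS and SARS2 lower and KARS and EEF1E1 higher (EEF1E1 0.32, adjusted p = 0.0174, edgeR with block). It called 35.7% of all genes there, 18.0% higher and 17.7% lower. With the block, 10.2% of all genes were called between DMA and solvent, 4.76% higher and 5.46% lower. FARSB was then at -0.64 ± 0.12 (adjusted p = 0.00765, edgeR with block). HARS2 was at -0.62 ± 0.14 (adjusted p = 0.015, 0.110 without the block), with 19.8, 21.8 and 17.1 CPM in DMA and 26.8, 37.3 and 26.9 CPM in solvent libraries. SARS was at 0.28 ± 0.08 (adjusted p = 0.0496, 0.187 without), with 298, 314 and 347 CPM in DMA and 261, 245 and 282 CPM in solvent libraries. Those groups did not overlap in either gene, as was so for 23.2% of all genes. The remaining 18 cytosolic genes lay between log2 -0.19 and 0.34, so the lower level of CARS, AARS and GARS was present with DMA as it was without it: their values of DMA minus starved were -1.12 ± 0.17, -1.02 ± 0.20 and -0.85 ± 0.20.

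With C646 no member was called against solvent (1.21% of all genes in either direction), where 5 cytosolic, 1 mitochondrial and 1 scaffold gene had an unadjusted p under 0.05, and DESeq2 called 1 cytosolic and 1 mitochondrial gene (5.84% of all genes). With the replicate block, which called 7.86% of all genes, 4.12% higher and 3.73% lower, 5 members were lower. FARSB was at -0.56 ± 0.12 (adjusted p = 0.0149, 0.0614 without the block). RARS was at -0.39 ± 0.10 (adjusted p = 0.0354, 0.149 without), with 109, 119 and 138 CPM against 172, 143 and 164 CPM in solvent libraries. KARS was at -0.38 ± 0.10 (adjusted p = 0.0363, 0.145 without), with 156, 183 and 198 CPM against 235, 223 and 240.4 CPM. EEF1E1 was at -0.41 ± 0.09 (adjusted p = 0.0205, 0.127 without), with 53.9, 41.6 and 47.0 CPM against 69.4, 62.4 and 57.6 CPM. NARS2, for mitochondrial asparagine, was at -0.57 ± 0.14 (adjusted p = 0.0248, 0.122 without), with 18.3, 16.01 and 14.7 CPM against 29.4, 23.4 and 20.3 CPM. None of these 5 overlapped with solvent, as was so for 21.8% of all genes, and without solvent library 1 the block fit called no cytosolic, mitochondrial or scaffold gene. RARS, KARS and EEF1E1 belong to the multi-synthetase complex, whose other members did not pass.

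Against starved libraries, which these comparisons share with the solvent comparison, DMA libraries had 2 cytosolic genes higher and 10 lower and C646 libraries 2 higher and 13 lower, beside 26.9% and 24.6% of all genes called. With DMA 13.9% of all genes were higher and 13.0% lower, and with C646 12.9% and 11.7%. Of 18 calls among all members in each comparison, 12 with DMA and 11 with C646 were kept whichever library was left out. Of 14 alternatives, LARS and WARS with C646 passed in 5, QARS in 6 and RARS in 11. With spike-in scaling 4 and 2 cytosolic genes were called, none of them lower, beside 43.1% of all genes with DMA (42.2% higher, 0.884% lower) and 34.2% with C646 (33.4% higher, 0.812% lower). HARS and RARS were the genes higher in both: RARS was at 0.81 ± 0.13 with DMA and 0.50 ± 0.13 with C646, and HARS at 0.53 ± 0.10 and 0.40 ± 0.10. MARS was at -0.58 ± 0.13 with C646 (adjusted p = 0.00499, edgeR) and at -0.24 with DMA, where it did not pass. In the mitochondrial set, MARS2 was higher and WARS2 and SARS2 lower with either inhibitor, LARS2 was higher with DMA, and EARS2 and HARS2 were lower with DMA. Of 14 alternatives, LARS2 with DMA passed in 9, EARS2 in 10 and HARS2 (adjusted p = 0.0483, edgeR) in 7. Each of these genes lost its call without starved library 3 and without DMA library 2. MARS2 was at 0.82 ± 0.16 with DMA and 1.04 ± 0.16 with C646. With the block, which called 36.2% of all genes for C646 and 38.7% for DMA, 7 mitochondrial genes were called for C646, CARS2 (0.32) and LARS2 (0.37) higher and EARS2 (-0.35) and TARS2 (-0.44) lower beyond the 3 called without it. For DMA the block added EEF1E1 (0.33, adjusted p = 0.0152). Between DMA and C646, given at different doses, no member was called (2.89% of all genes, 0.943% higher and 1.95% lower), where 3 cytosolic, 2 mitochondrial and 1 scaffold gene had an unadjusted p under 0.05 and DESeq2 called 1 mitochondrial and 1 scaffold gene. With the block, which called 9.81% of all genes there, 3.96% higher and 5.85% lower, EEF1E1 was higher with DMA by 0.42 ± 0.10 (adjusted p = 0.0149, 0.109 without) and PARS2, for mitochondrial proline, by 0.84 ± 0.21 (adjusted p = 0.0267, 0.0659 without). PARS2 was at 10.4, 6.93 and 8.56 CPM with DMA and 4.77, 5.48 and 4.07 CPM with C646, and at 5.73, 5.67 and 6.42 CPM in solvent libraries.

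Genes that act beside the synthetases went in both directions. Of 18 genes for tRNA handling and delivery, 2 were higher and 3 lower in solvent than in starved libraries (median log2 fold change 0.04), beside 24.3% of all genes called, a share that 5 of 18 lies near. Without solvent library 1 these counts were 1 and 2. GATC, a subunit of the mitochondrial amidotransferase that completes glutaminyl-tRNA without a QARS of its own, was higher by 0.64 ± 0.11, and DTD2, a tRNA deacylase, by 0.44 ± 0.14. XPOT, the nuclear exporter of tRNA, was lower by 0.85 on the log2 scale, from 538, 439 and 375 to 249.2, 244 and 258 CPM. SEPSECS, which makes selenocysteinyl-tRNA, and EEF1A1, the factor that delivers charged tRNA to the ribosome, had values of -0.69 and -0.44. DTD2 was lower with DMA than with solvent, at 11.9, 13.0 and 11.9 against 24.3, 22.9 and 23.1 CPM (-0.93 ± 0.14, adjusted p = 0.0146, edgeR). TSFM, the mitochondrial elongation factor Ts, was higher with DMA than with C646 (0.54 ± 0.11, adjusted p = 0.0259, edgeR).

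Of 28 genes of the amino acid and integrated stress response, 24 were lower and 2 higher in solvent than in starved libraries, with a median log2 fold change of -1.15, beside 11.7% of all genes lower and 12.6% higher. With spike-in scaling 11 were lower and 2 higher, with a median of -0.51, beside 1.24% of all genes lower and 21.1% higher. ATF4, named here after its values were seen, was at 919, 868 and 994 CPM in starved and 204, 245 and 307 CPM in solvent libraries (-1.88 ± 0.21, adjusted p = 8.8e-05, edgeR). DDIT3, encoding the stress factor CHOP, was at 227, 264 and 311 CPM in starved and 4.39, 7.13 and 6.204 CPM in solvent libraries (-5.50 ± 0.32). CHAC1, a glutathione-degrading enzyme, and CTH, which makes cysteine, were at -4.09 and -3.17, and ATF5 and ALDH18A1 were higher by 0.80 and 0.79. These falls exceed those of the cytosolic synthetase genes in the median, and the difference between the lists was not tested. Of 7 kinases and phosphatase subunits that act on eIF2, PPP1R15A (-1.87) and EIF2AK3, also known as PERK (-1.17), were lower, near the 24.3% called among all genes, and 5 did not pass, EIF2AK4, also known as GCN2, among them (0.31 ± 0.13, adjusted p = 0.113, edgeR).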

How the data were processed

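The authors deposited transcript tables that hold, per the file headers, expected counts and TPM values. Per the submitters' processing notes, Trimmomatic 0.36, STAR 2.7.0e and GRCh38.p10 were used before the expected counts were made and deposited; those notes name no quantifier, annotation or strand setting. Of 182164 sequences per table, 181808 matched GENCODE 29 transcripts (43481 genes), 92 were spike-ins and 264 matched neither. Expected counts were summed per gene and rounded, where raw counts had been assumed. The members and gene lists were chosen with earlier results of these data known. Members named with all values were those with the largest called changes in each set, those called under an inhibitor, the scaffold genes, those moving against their set, and KARS, GARS and QARS.

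Genes passing filterByExpr (count 10, total 15) were tested on all 12 libraries with edgeR 4.0.16 (R 4.3.3, TMM, robust quasi-likelihood). The fit was also run on simulated counts that held neither a replicate effect nor a shift of the scale. That run therefore cannot show how the fit handles either. Alternatives were DESeq2 1.42.0, other scalings, filters and libraries, a transcript length offset and a replicate block. Deviations of same-numbered libraries correlated between 0.13 and 0.48 in the 5 comparisons other than solvent minus starved. The main fit paired no libraries in any comparison, and the block served only as an alternative. TPM served for levels between genes. No source used here gives the spike-in amount per cell; fewer cells and less RNA per cell cannot be told apart.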

Additional observations from a re-analysis of the deposited data

How the results depend on the processing

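TMM and DESeq2 size factors gave the same side of the threshold for all 68 gene values examined; spike-in scaling changed the sign of 26. In solvent minus starved these were EPRS 0.079, IARS 0.073, MARS 0.047, NARS 0.18, QARS 0.28, WARS 0.26 and YARS 0.031. In DMA minus starved they were EPRS 0.14, GARS 0.0098, IARS 0.35, NARS 0.41, QARS 0.47, SARS 0.36, TARS 0.13, YARS 0.37, EARS2 0.34 and HARS2 0.21. In C646 minus starved they were EPRS 0.18, IARS 0.17, LARS 0.42, MARS 0.18, NARS 0.34, QARS 0.38, SARS 0.075, WARS 0.39 and YARS 0.19. By construction the shift of the scale moves every value, by an amount that varied somewhat from gene to gene.

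Counts of called genes are listed here for some sets only, and a set left out of a list need not be at 0. With spike-in scaling they were 3 cytosolic, 4 mitochondrial and 2 scaffold for solvent minus starved and 0 cytosolic for DMA minus solvent. They were 4 cytosolic and 3 scaffold for DMA minus starved, and 2 cytosolic, 5 mitochondrial and 2 scaffold for C646 minus starved. With the replicate block the counts that changed were 2 cytosolic and 1 mitochondrial for DMA minus solvent and 3 cytosolic, 1 mitochondrial and 1 scaffold for C646 minus solvent. They were 7 mitochondrial for C646 minus starved, 1 scaffold for DMA minus starved, and 1 mitochondrial and 1 scaffold for DMA minus C646. Against starved, the block left the cytosolic counts as they were, at 2 higher and 10 lower with DMA and 2 higher and 13 lower with C646. The mitochondrial counts with DMA also stayed, at 2 higher and 4 lower. For solvent minus starved, same-numbered libraries correlated at 0.0957, 0.330 and 0.182. There the block called 16 cytosolic, 4 mitochondrial and 1 scaffold gene, and over all genes 35.7% in place of 24.3%. The block without solvent library 1, chosen after seeing the data, called 1 mitochondrial gene for DMA minus solvent and 1 scaffold gene for solvent minus starved. DESeq2 called 1 cytosolic and 1 mitochondrial gene for C646 minus solvent, 2 mitochondrial for DMA minus solvent, and 1 mitochondrial and 1 scaffold for DMA minus C646. Without a filter 1 cytosolic gene was called for C646 minus solvent. The length offset called 0 cytosolic genes for DMA minus solvent and 3 mitochondrial for DMA minus starved, and a fit of the compared groups alone called 0 cytosolic genes for DMA minus solvent. The cause of these changes was not tested.

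Leaving out 1 library at a time gave 12 to 15 cytosolic and 2 to 3 mitochondrial genes for solvent minus starved, and 13 of the 17 calls were kept in all 6 such fits. It gave 0 to 1 cytosolic gene for DMA minus solvent, 10 to 12 cytosolic and 3 to 5 mitochondrial for DMA minus starved, and 10 to 14 cytosolic and 2 to 5 mitochondrial for C646 minus starved. Libraries whose absence moved a mitochondrial count by over 1.5 times were starved library 3 and DMA library 2 (3 genes each, DMA minus starved) and C646 library 3 (5 genes, C646 minus starved). The 16 pair ratios gave 11 to 13 without overlap, and 10 from CPM. MARS2 at 7.13 to 21.4 CPM and PARS2 at 4.07 to 10.4 CPM were the least deeply counted members given by library. SARS2, named without its levels, was at 6.76 to 20.7 CPM.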
